A study of Mus musculus with 14 samples.

Results

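The 43 genes described here are cell cycle and proliferation genes, taken by symbol from the 23282 genes in the count table of mouse epididymal white adipose tissue (eWAT). The list names symbols and uses no measured value, but it was drawn up with earlier results of these data known. All 43 symbols were found. QuantSeq 3′-mRNA sequencing, which reads the end of each polyadenylated transcript, gave 14 libraries of wild type male C57BL/6J mice that were young when feeding began. Batch 1 holds 4 mice on the normal diet (control group) and 5 mice on the Western diet (WD group), and batch 2 holds 5 further normal diet controls, all fed for 20 weeks. The WD was a purified diet rich in saturated fat, with cholesterol. Every WD library belongs to batch 1, so diet and batch cannot be told apart when the WD group is set against the batch 2 controls. Libraries of different groups came from different mice.

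A dividing cell passes through a phase of DNA synthesis and then through mitosis, and cyclins bound to cyclin-dependent kinases drive it from each phase to the next. Genes for DNA replication are switched on by E2F factors when a cell leaves rest, and genes for the spindle and chromosome segregation are transcribed later, shortly before mitosis. Mature adipocytes rarely divide, whereas progenitors, endothelial cells and macrophages of fat tissue can, and local division of macrophages is known in the fat of obese mice. The 43 genes were ordered by role into 2 proliferation markers, 7 cyclins and cyclin-dependent kinase, 13 genes of DNA replication and nucleotide supply, 11 mitotic kinases, checkpoint and ubiquitin ligase genes, and 10 spindle, microtubule and centromere genes.

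Total counts ranged from 10278970 to 13712254 per library. The 7 adipocyte markers all had counts in every library, and their summed level in CPM (counts scaled to a common library total, after edgeR's TMM scaling) was 23973 to 37543 in the WD group, 51603 to 62192 in the batch 2 controls and up to 44182 in the batch 1 controls. It was lowest, at 5898 CPM, in control replicate 1 of batch 1, where 9 epididymis markers summed to 31719 CPM, against at most 7.33 CPM elsewhere, and 8 male germ cell markers to 2410 CPM, against 181 to 560 CPM elsewhere. Control replicate 4 of batch 1 had counts for 7999 genes, against 10903 to 13780 in the other libraries. Control replicates 1 and 4 of batch 1 were therefore also left out, an alternative chosen after seeing the data, and values without them are given where they changed a call or moved a value by over 1.5 times.

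More of the 43 genes were detected in the WD group than in the batch 1 controls. The number with a count above 0 was 26, 18, 29 and 19 in batch 1 control replicates 1 to 4, and 41, 39, 42, 37 and 35 in WD replicates 1 to 5. It was 33, 23, 31, 37 and 25 in batch 2 control replicates 1 to 5. The WD libraries were all above the batch 1 controls, while WD replicates 4 and 5 lay at or below the highest batch 2 control. Over all 23282 genes, the detected share was 46.8% to 59.2% with the WD, 34.4% to 58.9% for batch 1 controls and 52.8% to 58.0% for batch 2 controls, and these ranges overlapped. Counts thinned to the smallest library total gave the same 14 numbers of detected cell cycle genes. In bulk tissue, fewer cells of a type and less RNA per cell cannot be told apart.

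**Figure D1:**
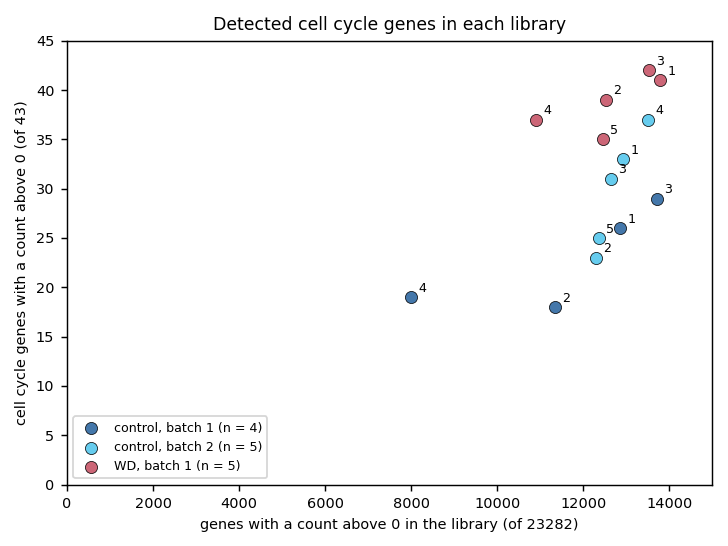
Number of the 43 cell cycle genes with a count above 0 (vertical axis) against the number of all genes with a count above 0 (horizontal axis), 1 point per library, numbered by replicate and coloured by group. The 5 WD libraries lie at 35 to 42 genes and the 4 batch 1 controls at 18 to 29, and control replicate 4 of batch 1 lies far to the left at 7999 genes.

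Detection was patchy from gene to gene. Of the 602 values of the 43 genes in 14 libraries, 167 were 0, 39 were between 1 and 9 counts and 396 were 10 counts or more. In all 14 libraries, 9 genes had a count. In the WD group 30 genes were detected in all 5 libraries, compared with 10 in all 4 batch 1 controls and 17 in all 5 batch 2 controls. No gene was at 0 throughout the WD group. The genes Ccnb2, Rrm2, Plk1, Aurkb, Bub1b and Cdc20 were at 0 in every batch 1 control, and Bub1b alone was at 0 in every batch 2 control.

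**Figure D2:**
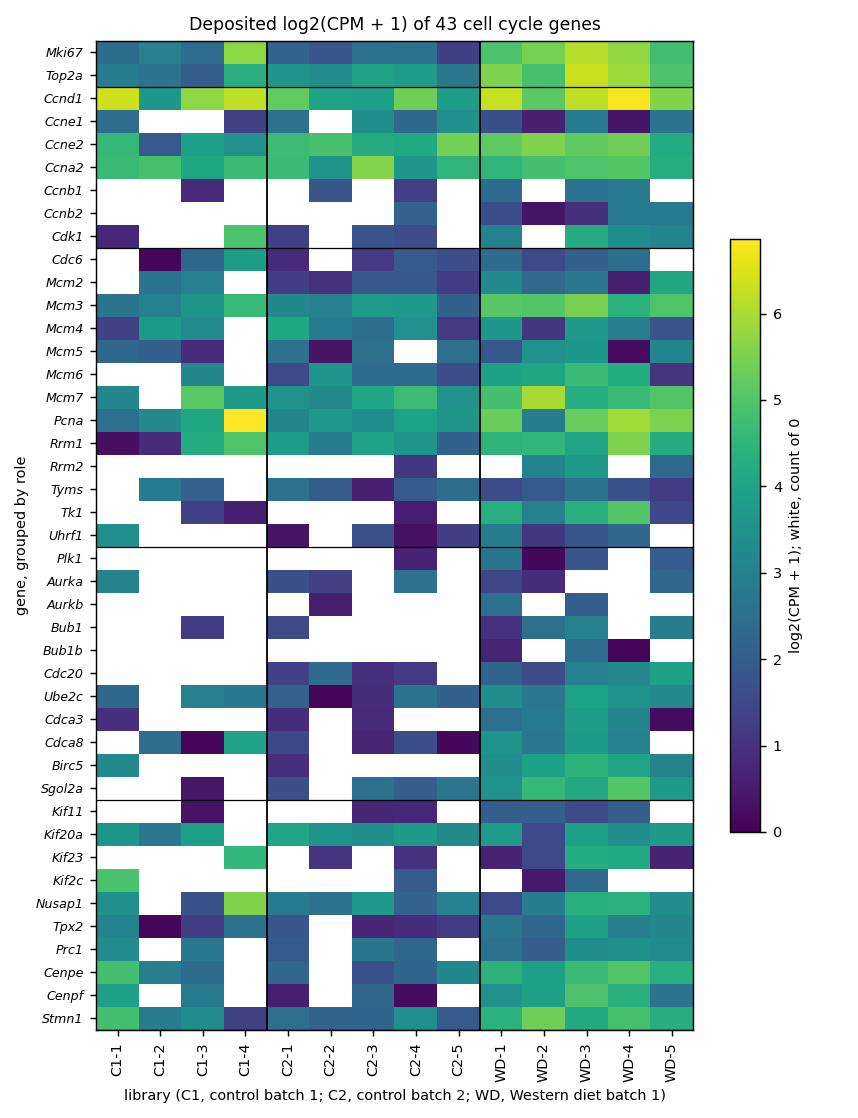
Deposited log2(CPM + 1) of the 43 cell cycle genes (vertical axis, grouped by role) in the 14 libraries (horizontal axis), with a count of 0 in white. The WD columns on the right hold 1 to 8 white cells each, the batch 1 control columns on the left hold 14 to 25, and Pcna, Mki67 and Nusap1 are bright in control replicate 4 of batch 1.

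The summed counts of the 43 genes were also higher in most WD libraries. As CPM of the unscaled library total, they amounted to 267, 123, 272 and 545 in batch 1 control replicates 1 to 4, 590, 434, 854, 740 and 470 in WD replicates 1 to 5, and 232, 151, 234, 250 and 167 in batch 2 control replicates 1 to 5. The WD libraries were all above the batch 2 controls, and control replicate 4 of batch 1 lay above WD replicates 2 and 5. Its exact 95% binomial interval, which covers counting error only, was 532 to 558, and that of WD replicate 2 was 422 to 446. Among the 9 controls, the highest level was in control replicate 1 of batch 1 for 11 of the 43 genes and in control replicate 4 for 10, and these libraries had no count for 17 and 24 of them. WD replicate 3 had the highest level of all 14 libraries for 13 genes, and WD replicate 4 for 8.

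Markers of other cell types differed in whether they followed these sums, and their part in the results was not tested. The 12 macrophage markers summed to 278, 766, 501 and 1569 CPM in batch 1 control replicates 1 to 4, and to between 323 and 669 CPM in the controls of batch 2. The WD libraries had 1582 to 2448 CPM, so all 5 lay above every control. Control replicate 4 thus had the highest macrophage sum among the controls and also the highest cell cycle sum among them. Among the batch 2 controls, replicate 4 had the highest of both sums, at 669 CPM for the macrophage markers and 241 CPM for the cell cycle genes. Replicate 2 had the lowest of both, at 323 and 148 CPM. Some other libraries did not follow this. With the same TMM scaling, control replicate 1 of batch 1 had the lowest macrophage sum but 347 CPM for the cell cycle genes. Among the controls only replicate 4 of batch 1 had more. WD replicate 2 had the highest macrophage sum, 2448 CPM, beside 518 CPM for the cell cycle genes. WD replicate 3 had 1764 CPM beside 794 CPM, the highest cell cycle sum. Between 10 and 12 macrophage markers were detected per library, with Mertk at 0 in 9 libraries and Fcgr1 at 0 in 2. Of the 11 tested, edgeR called 9 higher and 0 lower against batch 2, beside 3.93% higher and 2.48% lower of all genes tested. It called 4 higher against all 9 controls, beside 0.435% of all genes, and 0 within batch 1, beside 0%. Adipocyte markers moved the other way against batch 2, where their summed levels did not overlap. There edgeR called 5 of the 7 lower and 1 higher (Lep, the hormone leptin), beside 2.48% lower and 3.93% higher of all genes tested. Among them the log2 fold change was -3.07 for Cfd, the secreted protease adipsin, and -1.40 for Adipoq, which encodes adiponectin. Within batch 1 none of the 7 was called, as 0% of all genes tested were, and the sums of the groups overlapped. The 10 T and B lymphocyte markers summed to at most 8.34 CPM in the batch 1 controls, 15.3 CPM in the batch 2 controls and 23.7 CPM in 4 WD libraries, and to 123 CPM in WD replicate 3. Cd8a was at 0 in 13 libraries. Sums of 7 stromal progenitor, 6 endothelial and 5 mesothelial markers overlapped between groups, at 2040 to 3882, 66.6 to 175 and 16.9 to 123 CPM in the WD group, 1353 to 2989, 72.4 to 309 and 0.073 to 108 CPM in the batch 1 controls, and 1204 to 2740, 73.9 to 182 and 43.6 to 101 CPM in the batch 2 controls.

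**Figure D3:**
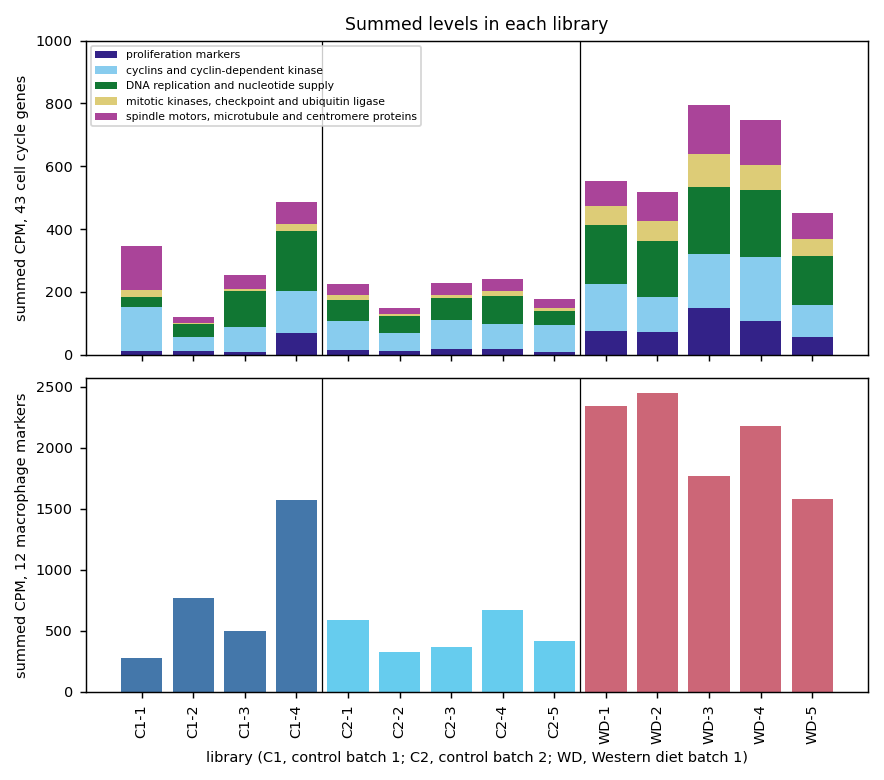
Summed CPM of the 43 cell cycle genes, stacked by role (upper bars), and summed CPM of 12 macrophage markers (lower bars), in each of the 14 libraries. The upper bars reach 451 to 794 CPM for WD libraries, against 148 to 241 CPM for batch 2 controls, and in both panels control replicate 4 of batch 1 is the highest control.

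Promoters of cell cycle genes are known to carry short recognition sequences, and the promoters of these genes were read to show which carry them. RefSeq sequences of build GRCm38.p6, from 250 bases before to 50 bases after the start, were matched for 35 of the 43 genes. Searched on both strands, where matches may share bases at their ends, were the cell cycle homology region TTTGAA (CHR), the CCAAT box and the E2F sites TTTGGCGC and TTTCCCGC. The CHR letters were found in 17 of 35 promoters (48.6%), against 18.1% of 27025 mouse promoters of the same length, the CCAAT letters in 28 (80.0%, against 37.9%), and both in 16 (45.7%, against 7.1%). An E2F match was held by 5 promoters (14.3%, against 1.6%), those of Cdc6, Mcm3, Mcm5, Mcm6 and Mcm7, all genes of DNA replication. The CHR letters were held by 7 of 10 mitotic kinase, checkpoint and ubiquitin ligase promoters and 1 of 12 replication promoters. A match describes letters only, and factor binding was not measured.

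The 100 bases before the start are shown for the 5 genes that hold both CHR and CCAAT there, and for Mcm6, the gene with an E2F match there. Capitals mark the matches, as TTTGAA or TTCAAA for CHR, CCAAT or ATTGG for the CCAAT box, and TTTGGCGC for the E2F site. Each sequence reads 5′ to 3′ toward the gene.
Top2a promoter (chr11:99024190-99024289, minus strand): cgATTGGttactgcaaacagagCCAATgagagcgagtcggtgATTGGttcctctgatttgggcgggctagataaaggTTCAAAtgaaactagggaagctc
Cdk1 promoter (chr10:69352913-69353012, minus strand): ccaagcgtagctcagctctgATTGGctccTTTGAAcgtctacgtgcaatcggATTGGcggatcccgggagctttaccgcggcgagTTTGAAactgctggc
Cdc20 promoter (chr4:118437344-118437443, minus strand): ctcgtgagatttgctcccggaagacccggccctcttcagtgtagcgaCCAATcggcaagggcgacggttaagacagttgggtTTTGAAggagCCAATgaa
Ube2c promoter (chr2:164769829-164769928, plus strand): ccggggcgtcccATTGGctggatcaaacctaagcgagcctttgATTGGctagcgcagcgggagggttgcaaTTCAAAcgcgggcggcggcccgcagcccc
Kif11 promoter (chr19:37376282-37376381, plus strand): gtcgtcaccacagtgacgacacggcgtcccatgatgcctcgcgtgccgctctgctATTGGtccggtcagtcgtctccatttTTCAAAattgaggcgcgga
Mcm6 promoter (chr1:128359706-128359805, minus strand): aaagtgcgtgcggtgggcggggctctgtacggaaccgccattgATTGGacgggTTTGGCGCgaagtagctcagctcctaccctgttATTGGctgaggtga

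The comparison of diets within batch 1, the batch that holds both, placed most of the 43 genes higher in the WD group but passed none of them at a false discovery rate (FDR) under 0.05. The mean CPM was higher in the WD group for 39 of the 43 genes and lower for 4, while it was higher for 49.1% of all genes with a count. Without control replicates 1 and 4 it was higher for 41 of the 43 genes, beside 52.6% of all genes with a count. edgeR's quasi-likelihood test was made on the 36 genes that passed its filter on low counts, and Ccnb1, Rrm2, Plk1, Aurka, Aurkb, Bub1b and Kif2c did not pass. It called 0 of them, and 0% of all 12157 genes tested. At an unadjusted p under 0.05, 9 were higher and 0 lower, against 3.35% higher and 1.82% lower of all genes tested. Of the 36, Ccnb2, Cdc20, Cdca3, Sgol2a and Kif11 had under 10 counts in each of these controls and passed the filter through the WD group. Others, such as Tk1 and Birc5, had 10 counts or more in only 1 of these controls and passed mainly through the WD group. DESeq2 called 4 (Sgol2a, Top2a, Tk1 and Cdc20), beside 0.955% of all genes with an adjusted p. With no filter on low counts, the median log2 fold change of all 43 genes was 1.20, beside -0.019 over all 16985 genes with a count. It was also 1.20 with the 6 genes that had no count in these controls set to their lower bounds. Those bounds, from 4.47-fold to 28.8-fold, all lay above the median, so this step could not lower it. Every WD library lay above every batch 1 control in CPM for 5 of the 43 genes (Top2a, Ccnb2, Tk1, Cdc20 and Sgol2a), as for 2.21% of all genes with a count. Without control replicate 4, edgeR called 3 genes (Sgol2a, Top2a and Mki67), beside 0.372% of all genes tested. Without control replicates 1 and 4 it called 4 (with Birc5), beside 0.796% of all genes tested.

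Against the batch 2 controls, 10 of the 43 genes were called and all were higher in the WD group. edgeR tested 37 of the 43 genes and called 10 higher and 0 lower, where 6.40% of all 12070 genes tested were called, 3.93% higher and 2.48% lower. The 10 genes called were Mki67, Top2a, Ccnd1, Mcm3, Pcna, Tk1, Birc5, Stmn1, Cenpe and Cenpf. Of these Tk1 had under 10 counts in each batch 2 control and passed the filter through the WD group. Birc5 and Cenpf each had 10 counts or more in only 1 batch 2 control, so they too passed mainly through the WD group. At an unadjusted p under 0.05, 19 were higher and 0 lower, against 9.83% and 7.90% of all genes tested. With no filter on low counts, the median log2 fold change of all 43 genes was 1.84, beside 0.025 over all 16429 genes with a count. The mean CPM was higher in the WD group for 38 of the 43 genes and for 52.3% of all genes with a count. The groups did not overlap in CPM for 12 genes, each higher in the WD group, as for 3.73% of all genes with a count. Leaving out each of the 10 libraries in turn gave 6 to 10 calls, and the 6 genes Mki67, Top2a, Mcm3, Tk1, Birc5 and Stmn1 were called each time. The lowest number was without WD replicate 1 or 3. DESeq2 called 16, beside 10.4% of all genes with an adjusted p.

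The controls of the 2 batches, which share the diet, gave no call among the 43 genes. edgeR tested 28 of them and called 0, as it called 0% of all 12106 genes tested. At an unadjusted p under 0.05, Cdc20 and Sgol2a were higher and Mki67 was lower in batch 2, against 3.85% higher and 3.54% lower of all genes tested. The mean CPM was higher in batch 2 for 19 and lower for 23 of the 42 genes with a count, and higher for 46.5% of all genes. No gene of the 43 was higher in every batch 2 control than in every batch 1 control, as 3.02% of all genes were. With the 9 controls pooled, 1 of 37 genes tested was called, Top2a, and it was higher in the WD group. Of all 12653 genes tested 0.530% were called, 0.435% higher and 0.0948% lower. At an unadjusted p under 0.05, 9 of the 43 genes were higher and 0 lower, against 4.48% and 3.25% of all genes tested. The mean CPM was higher in the WD group for 39 of the 43 genes and for 44.6% of all genes with a count, and every WD library lay above every control for 3 genes (Top2a, Tk1 and Sgol2a), as for 0.829% of all genes. With batch as a term in the fit 0 of the 43 genes were called, but only 0.00790% of all genes tested were, so this count shows nothing particular to them. Without control replicate 4 of batch 1, 5 were called, beside 2.29% of all genes tested, and without WD replicate 1, 3 or 4 none was. These comparisons share control or WD libraries and do not stand as separate evidence.

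Mki67, which encodes the proliferation antigen Ki-67, had the lowest FDR of the 43 genes against the batch 2 controls. Its counts were 42, 83, 54 and 683 in batch 1 control replicates 1 to 4, 419, 413, 936, 646 and 313 in WD replicates 1 to 5, and 48, 26, 62, 65 and 14 in batch 2 control replicates 1 to 5. Control replicate 4 of batch 1 alone among the 9 controls lay within the WD range. The WD group had a mean of 44.1 ± 17.5 CPM (SD, n = 5). Controls of batch 1 had 16.4 ± 22.2 CPM (SD, n = 4), and controls of batch 2 had 3.37 ± 1.49 CPM (SD, n = 5). Relative to the controls, the log2 fold change was 1.42 (SE 0.76, FDR = 1.00 by edgeR's quasi-likelihood test) within batch 1 and 3.63 (SE 0.42, FDR = 6.28e-05) against batch 2. Without control replicate 4 the value within batch 1 was 2.99, and without control replicates 1 and 4 it was 2.91. The gene was called in both fits. Between the controls the log2 fold change was -2.23 for batch 2 against batch 1 (SE 0.94, FDR = 0.621), and -0.62 without control replicate 4 of batch 1.

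Top2a encodes topoisomerase II alpha, which untangles DNA before chromosomes separate, and its promoter holds 1 CHR and 3 CCAAT matches in the 100 bases shown. Its counts were 62, 61, 37 and 254 in the batch 1 controls, 641, 271, 1083, 713 and 358 in the WD group and 155, 96, 191, 167 and 57 in the batch 2 controls. All 5 WD libraries were above all 9 controls, although WD replicate 2 exceeded control replicate 4 of batch 1 by few counts. The WD group had a mean of 48.1 ± 21.2 CPM (SD, n = 5). Controls of batch 1 had 8.33 ± 6.90 CPM (SD, n = 4), and controls of batch 2 had 10.6 ± 3.34 CPM (SD, n = 5). The log2 fold change was 2.50 (SE 0.64, FDR = 0.434 by edgeR) within batch 1, 2.16 (SE 0.36, FDR = 0.0012) against batch 2 and 2.29 (SE 0.43, FDR = 0.0172) against all 9 controls. Within batch 1 it was called without control replicate 4, at 3.21, and without control replicates 1 and 4, at 3.51.

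**Figure D4:**
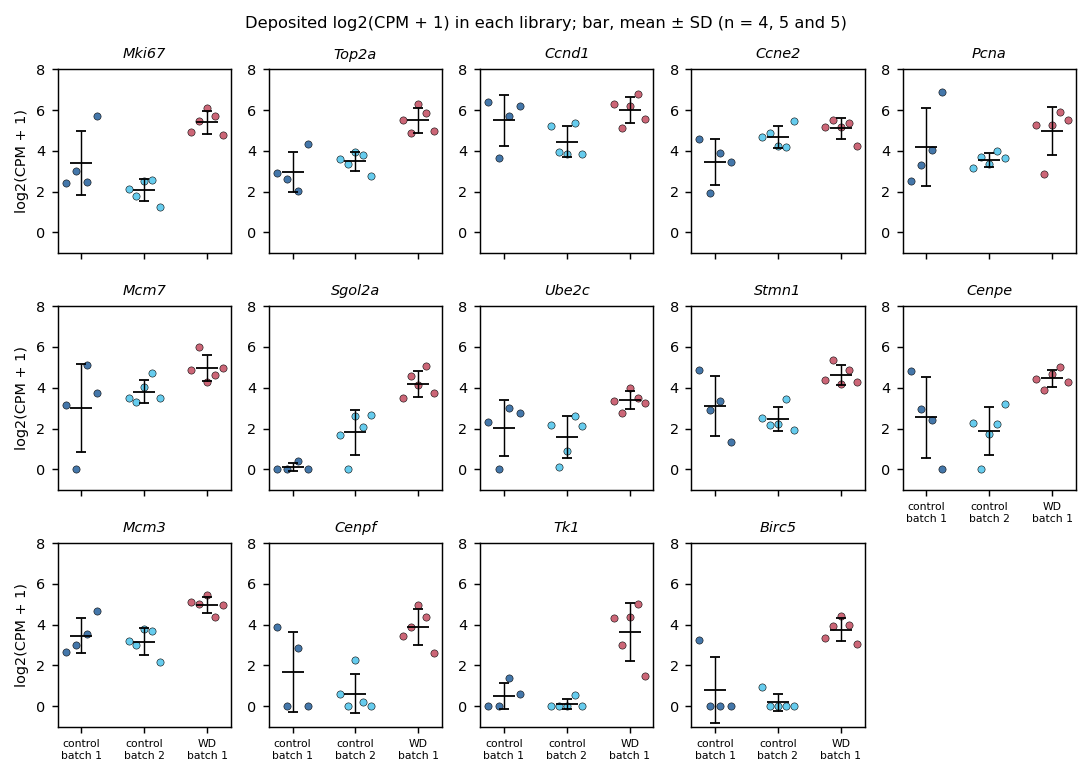
Deposited log2(CPM + 1) (vertical axes) of 14 cell cycle genes in each library of the 3 groups (horizontal axes), with the mean and SD as bars. Top2a, Sgol2a and Tk1 separate the 5 WD libraries from all 9 controls, and for Mki67 1 control, replicate 4 of batch 1, lies among the WD points.

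Among the 7 cyclins and cyclin-dependent kinase, Ccnd1 was called against batch 2 and none within batch 1. Ccnd1 encodes cyclin D1, which starts the passage out of the resting phase. Its counts were 786, 139, 616 and 987 in the batch 1 controls, 1084, 326, 997, 1363 and 554 in the WD group and 505, 151, 180, 527 and 133 in the batch 2 controls. The WD range overlapped that of both control groups. Its fitted log2 fold change was 0.30 (SE 0.52, FDR = 1.00 by edgeR) within batch 1, -0.058 without control replicate 2, 1.11 without control replicates 1 and 4, and 1.52 (SE 0.39, FDR = 0.0249) against batch 2. The latter call was lost without WD replicate 1, 3 or 4 or batch 2 control replicate 2, 3 or 5, with values of 1.28 to 1.80 over all 10 libraries left out in turn. Ccne2, which encodes the S-phase cyclin E2, had counts of 220, 33, 164 and 134 in the batch 1 controls, 493, 434, 485, 509 and 211 in the WD group and 349, 292, 234, 221 and 423 in the batch 2 controls. WD replicate 5 lay below the highest control of each batch. The log2 fold change was 1.47 (SE 0.65, FDR = 0.932 by edgeR) within batch 1 and 0.42 (SE 0.33, FDR = 0.602) against batch 2.

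The other cyclins differed in their detection. Ccna2, cyclin A2, had counts in all 14 libraries, from 112 to 629, with both ends in the batch 2 controls, and log2 fold changes of 0.18 within batch 1 and 0.17 against batch 2. Ccnb2, a mitotic cyclin, was at 0 in the 4 batch 1 controls and had 30, 3, 13, 77 and 71 counts in the WD group, at least 12.4-fold higher in mean CPM when each control is set to a floor of 3 counts. Among the batch 2 controls it had 45 counts in replicate 4 and 0 in the others. Ccnb1, the other mitotic cyclin measured, had counts in 3 WD libraries, 1 batch 1 control and 2 batch 2 controls. Cdk1, the kinase bound by these cyclins, had 390 counts in control replicate 4 of batch 1, above the WD range of 0 to 249, and at most 7 counts in the other 3 controls of that batch. Ccne1, cyclin E1, had counts in all 5 WD libraries, from 4 to 86, and reached 129 in the batch 2 controls.

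Of the 13 genes of DNA replication and nucleotide supply, Mcm3, Pcna and Tk1 were called against batch 2. Pcna, the sliding clamp of the replicative polymerase, had counts of 45, 104, 189 and 1549 in the batch 1 controls, 540, 61, 519, 737 and 532 in the WD group and 110, 123, 120, 195 and 113 in the batch 2 controls. The highest value of all libraries was control replicate 4 of batch 1, and WD replicate 2 was near the lowest controls. By edgeR, the log2 fold change was 0.066 (SE 0.85, FDR = 1.00 by edgeR) within batch 1, -0.29 without control replicate 1, 1.89 without control replicate 4 and 1.59 without both. Against batch 2 it was 1.74 (SE 0.44, FDR = 0.0246), a call kept in 2 of the 10 fits that left out a library, those without WD replicate 2 or control replicate 4, with values from 1.52 to 2.01 over the 10.

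Mcm3 and Mcm7 encode subunits of the helicase that opens DNA at replication forks. Mcm3 had counts of 50, 84, 129 and 324 in the batch 1 controls, 468, 301, 592, 247 and 366 in the WD group and 114, 72, 168, 157 and 34 in the batch 2 controls. The WD libraries were above all batch 2 controls, and control replicate 4 of batch 1 exceeded WD replicates 2 and 4 in counts. The log2 fold change was 1.43 (SE 0.61, FDR = 0.881 by edgeR) within batch 1 and 1.86 (SE 0.39, FDR = 0.00685) against batch 2. Mcm7 had counts of 76, 0, 404 and 165 in the batch 1 controls, 395, 594, 255, 301 and 368 in the WD group and 144, 91, 207, 331 and 102 in the batch 2 controls. Both control groups overlapped the WD group. For Mcm7 the log2 fold change was 1.28 (SE 1.07, FDR = 1.00) within batch 1, 0.85 without control replicate 2 and 2.23 without control replicate 3, and 1.22 (SE 0.40, FDR = 0.0912) against batch 2.

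Tk1, thymidine kinase of the nucleotide salvage pathway, was nearly absent from the controls. Its counts were 0, 0, 19 and 7 in the batch 1 controls, 268, 66, 269, 395 and 21 in the WD group and 0, 0, 0, 6 and 0 in the batch 2 controls. WD replicate 5, at 21 counts, was close to the highest control, and the other WD libraries stood well above. In the fits, the log2 fold change was 4.53 (SE 1.52, FDR = 0.591 by edgeR) within batch 1, 5.95 (SE 1.00, FDR = 0.00139) against batch 2 and 5.14 (SE 1.20, FDR = 0.064) against all 9 controls. These fitted values depend on the prior count of 2 that edgeR adds. A predicted gene, Gm20708, is annotated at the 3′ end of Tk1.

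The remaining replication genes gave no call. Rrm2, the regulated subunit of ribonucleotide reductase, was at 0 in all batch 1 controls and in WD replicates 1 and 4, had 49 to 162 counts in the other WD libraries and was at least 18.6-fold higher in mean CPM, or 10.6-fold without WD replicate 3. In the batch 2 controls it had 15 counts in replicate 4 only. Rrm1, the large subunit of that enzyme, had 206 to 568 counts in the WD group, 34 to 197 in the batch 2 controls and 2 to 411 in the batch 1 controls. Mcm6 had counts in all 5 WD libraries, from 13 to 335, and in 1 of 4 batch 1 controls. Mcm2, Mcm4, Mcm5, Cdc6, a helicase loader, Tyms, the thymidylate synthase, and Uhrf1, which guides maintenance of DNA methylation, overlapped between the groups, with log2 fold changes from -0.59 for Cdc6 to 1.65 for Mcm5 within batch 1. Without control replicates 1 and 4 these ran from -0.73 for Tyms to 4.19 for Uhrf1, and Cdc6 was at 0.44.

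The 11 mitotic kinases, checkpoint and ubiquitin ligase genes held the most zeros among the controls. Per library, 7 to 11 of them were detected in the WD group, 1 to 4 in the batch 1 controls and 3 to 8 in the batch 2 controls. Their summed level was 56.0 to 104 CPM in the WD group, 4.42 to 21.4 CPM in the batch 1 controls and 6.20 to 17.3 CPM in the batch 2 controls, without overlap. For the other roles the WD sums lay above the batch 2 controls but overlapped the batch 1 controls. They were 55.9 to 149 against 7.59 to 68.0 CPM for the proliferation markers and 101 to 202 against 42.4 to 139 CPM for the cyclin role. Replication genes had 157 to 214 against 34.7 to 191 CPM, and spindle genes 79.1 to 155 against 18.8 to 140 CPM. Sgol2a, a shugoshin that guards the cohesion of sister centromeres, had 0, 0, 4 and 0 counts in the batch 1 controls, 144, 216, 230, 401 and 146 in the WD group and 31, 0, 67, 42 and 54 in the batch 2 controls. All 5 WD libraries were above all 9 controls. The log2 fold change was 6.25 (SE 1.28, FDR = 0.434 by edgeR) within batch 1 and 2.51 (SE 0.75, FDR = 0.0608) against batch 2. In batch 1 the gene was called without control replicate 4, at 6.07, and without control replicates 1 and 4, at 5.85. Against batch 2 it was called without control replicate 2, at 2.20.

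Birc5 encodes survivin, a subunit of the chromosomal passenger complex. It had 80, 0, 0 and 0 counts in the batch 1 controls, 132, 134, 285, 188 and 88 in the WD group and 13, 0, 0, 0 and 0 in the batch 2 controls. Control replicate 1 of batch 1, the library with epididymis markers, held the one high control value, and on the CPM scale it overlapped the WD group. Relative to the controls, the log2 fold change was 2.54 (SE 1.76, FDR = 1.00 by edgeR) within batch 1 and 5.25 (SE 1.06, FDR = 0.00522) against batch 2, and it was 6.37 and called within batch 1 without control replicates 1 and 4. Ube2c, the ubiquitin-conjugating enzyme of the anaphase-promoting complex, had 38, 0, 84 and 78 counts in the batch 1 controls, 131, 55, 204, 131 and 103 in the WD group and 49, 1, 11, 67 and 34 in the batch 2 controls. In counts WD replicate 2 overlapped both control groups, and in CPM it was above the batch 2 controls. The log2 fold change was 1.20 (SE 1.27, FDR = 1.00) within batch 1, 0.77 without control replicate 2, and 1.86 (SE 0.80, FDR = 0.227) against batch 2.

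Among the other genes of this role, Cdc20, the activator of the anaphase-promoting complex, was at 0 in the batch 1 controls and had 51, 19, 98, 106 and 172 counts in the WD group, at least 28.8-fold higher in mean CPM. In the batch 2 controls it had 21, 44, 12, 17 and 0 counts, which overlapped the WD range. Plk1, a kinase of mitotic entry, and Aurkb, the kinase of the passenger complex, were at 0 in the batch 1 controls and had counts in 4 and 2 WD libraries, at least 9.30-fold and 6.78-fold higher in mean CPM, or 6.07-fold and 3.44-fold without WD replicate 1. Bub1b, a spindle checkpoint kinase, was at 0 in all 9 controls and had 9, 0, 62, 1 and 0 counts in the WD group, nearly all of them in replicate 3. Without that library the WD mean lay below the floor of 3 counts per control. Cdca3 had counts in all 5 WD libraries, from 2 to 182, and in 1 batch 1 and 2 batch 2 controls, at no more than 12 counts. Cdca8, another subunit of the passenger complex, had its highest count, 196, in control replicate 4 of batch 1. Bub1, a checkpoint kinase, and Aurka, the kinase of the spindle poles, were at 0 in most controls, and Aurka had its highest count, 71, in a control.

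Of the 10 spindle, microtubule and centromere genes, Stmn1, Cenpe and Cenpf were called against batch 2. Stmn1 encodes stathmin, which destabilises microtubules. It had 267, 77, 109 and 20 counts in the batch 1 controls, 283, 387, 236, 356 and 220 in the WD group and 65, 37, 48, 129 and 28 in the batch 2 controls. The WD libraries were above all batch 2 controls, and control replicate 1 of batch 1 lay within their range. Its fitted log2 fold change was 1.11 (SE 0.80, FDR = 1.00 by edgeR) within batch 1 and 2.31 (SE 0.46, FDR = 0.00438) against batch 2. Within batch 1 it was 2.12 without control replicate 1, 0.73 without control replicate 4 and 1.67 without both.

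Cenpe is a kinesin that carries chromosomes to the spindle equator, and Cenpf is a kinetochore protein. Cenpe had 264, 79, 53 and 0 counts in the batch 1 controls, 292, 134, 339, 390 and 223 in the WD group and 53, 0, 31, 48 and 81 in the batch 2 controls. Cenpf had 131, 0, 74 and 0 counts in the batch 1 controls, 142, 133, 413, 244 and 62 in the WD group and 7, 0, 50, 2 and 0 in the batch 2 controls. Both genes separated the WD group from the batch 2 controls and overlapped with batch 1 controls, Cenpe with replicate 1 and Cenpf with replicates 1 and 3. The log2 fold change of Cenpe was 1.13 (SE 1.14, FDR = 1.00 by edgeR) within batch 1 and 2.56 (SE 0.73, FDR = 0.0456) against batch 2, and that of Cenpf was 1.61 (SE 1.49, FDR = 1.00) and 3.91 (SE 1.06, FDR = 0.0355). Within batch 1, the value of Cenpe was 2.53 without control replicate 1, 0.70 without control replicate 4 and 1.96 without both, and that of Cenpf was 2.86 without control replicate 1 and 2.31 without both. The call of Cenpe against batch 2 was lost without WD replicate 1, 3, 4 or 5 or control replicate 1, 3 or 4, with values from 2.25 to 3.07, and that of Cenpf without WD replicate 1 or 3 or control replicate 1, 2, 4 or 5, with values from 3.55 to 5.57.

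**Figure D5:**
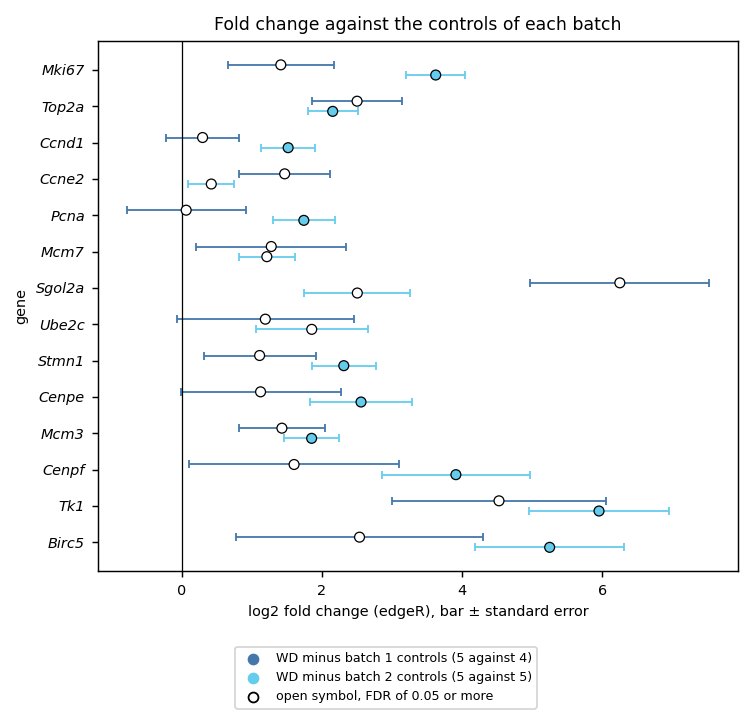
Log2 fold change ± standard error by edgeR (horizontal axis) of 14 cell cycle genes (vertical axis), WD group against the batch 1 controls and against the batch 2 controls. Filled points had an FDR under 0.05, which holds for 10 genes against batch 2 and 0 within batch 1, where the standard errors run from 0.52 for Ccnd1 to 1.76 for Birc5.

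The motor proteins were less even. Kif11, the kinesin that pushes spindle poles apart, had counts in 4 WD libraries, from 27 to 44, 1 batch 1 control, at 3, and 2 batch 2 controls, at 9. Kif23, a kinesin of cytokinesis, had 298 counts in control replicate 4 of batch 1 and 7 to 248 in the WD group. Kif2c, which takes microtubules apart, had its highest count, 274, in control replicate 1 of batch 1. Nusap1, a spindle protein, had its highest count, 624, in control replicate 4 of batch 1. Tpx2, which helps spindle assembly, had 36 to 194 counts in the WD group and at most 36 in the batch 2 controls, and these groups did not overlap in CPM. Prc1, which bundles the central spindle, had 29 to 132 counts in the WD group and overlapped both control groups.

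For 9 of the 43 genes another gene is annotated within 200 bases of the 3′ end, where QuantSeq reads fall, and the methods do not state that strand was used in counting. Counts of Kif20a, a kinesin of cytokinesis, which ranged from 0 to 217, and of its neighbour Cdc23 were nearly the same, with ratios of 0.928 to 1.09 in the 13 libraries where both had counts. The ratio of Ccna2 to Exosc9 was 0.558 to 1.02 in 14 libraries. The reads of these 2 pairs cannot be told apart, and the levels of Kif20a and Ccna2 are uncertain. For Ccne2 beside Ints8 the ratio ran from 0.50 to 5.04, for Mcm7 beside Cops6 from 0.139 to 1.39 in the 13 libraries with both, and for Ccnd1 beside Oraov1 from 1.20 to 56.1. Cdc20 lies beside Elovl1, Prc1 beside Rccd1, Tk1 beside Gm20708 and Plk1 beside Ern2, which was at 0 throughout.

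Other genes of the pathway, 73 in number and taken from a list of replication, checkpoint, spindle and cyclin partner genes, were treated the same way. Within batch 1 edgeR tested 56 of them and called 0, as it called 0% of all 12157 genes tested. At an unadjusted p under 0.05, 6 were higher and 0 lower, against 3.35% higher and 1.82% lower of all genes tested. DESeq2 called 3, beside the 0.955% of all genes given above. The mean CPM was higher in the WD group for 64 of the 73, and for 49.1% of all genes with a count. Against batch 2, 51 were tested, and 5 were called higher and 0 lower, beside 3.93% and 2.48% of all genes tested. Among them were Lig1, the DNA ligase of replication (log2 fold change 1.98, SE 0.35, FDR = 0.00197 by edgeR), and the condensin genes Smc2 (1.42, SE 0.27, FDR = 0.00335) and Smc4 (0.87, SE 0.22, FDR = 0.0262). Lig1 had 475, 191, 127 and 1236 counts in the batch 1 controls, with replicate 4 again the highest, against 107 to 342 for batch 2 controls and 432 to 1492 for WD libraries. Ttk, a spindle checkpoint kinase, had 0 counts in all 9 controls and 31, 73, 30, 136 and 68 in the WD group, at least 22.6-fold higher in mean CPM than all 9 controls, and it passed the filter on low counts through the WD group alone. It and Smc4 (1.00, SE 0.22, FDR = 0.0456 by edgeR) were the 2 called against all 9 controls, beside 0.530% of all genes tested.

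Among 11 inhibitors of the cell cycle, 1 was called higher and 1 lower against batch 2, beside 3.93% higher and 2.48% lower of all genes tested. None was called within batch 1, where 0% of all 12157 genes tested were called, so this shows nothing particular to the inhibitors. Cdkn1a, the p21 inhibitor of cyclin-dependent kinases, had 405, 3099, 978 and 1402 counts in the batch 1 controls, 2285, 1575, 1846, 2155 and 1484 in the WD group and 620, 186, 506, 815 and 527 in the batch 2 controls. Its log2 fold change was 1.81 (SE 0.28, FDR = 0.000663 by edgeR) against batch 2 and 0.32 (SE 0.43, FDR = 1.00) within batch 1, where it was -0.16 without control replicates 1 and 4. Cdkn2c, the p18 inhibitor of the cyclin D kinases, had 106, 401, 411 and 621 counts in the batch 1 controls, 389, 292, 398, 311 and 343 in the WD group and 1468, 1191, 1210, 806 and 476 in the batch 2 controls. Its log2 fold change was -1.57 (SE 0.25, FDR = 0.00111) against batch 2 and -0.14 (SE 0.48, FDR = 1.00) within batch 1, or -0.26 without those controls. For both genes the batch 2 controls stood apart from the WD group, and the batch 1 controls overlapped with it.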

How the data were processed

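QuantSeq 3′-mRNA libraries of eWAT were sequenced single-end. The deposited counts are raw: the authors used Bowtie2 for alignment and Bedtools for counting per gene, multiple alignments included. The build in the submitters' processing notes is mm10. The authors also deposited log2 values after TMM and CPM scaling in edgeR with 1 added, and values recomputed from the counts lay within 0.051 of these. No molecular identifiers are mentioned, so precision from depth (10278970 to 13712254 counts per library, where 3 counts are 0.219 to 0.292 CPM) covers counting error only.

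Groups came from the sample labels. The counts were tested two-sided with edgeR 4.0.16 (TMM, its filter on low counts, quasi-likelihood test, FDR over all genes tested) in R 4.3.3, with DESeq2 1.42.0 and limma 3.58.1 voom as alternatives. The SE is the log2 fold change divided by the root of F. Other alternatives were RLE factors, library totals, no filter, a CPM floor of 1 in each library, thinned counts, batch as a term, the replicate number as a block, and each library left out. Python 3.11.15 with numpy 2.4.6, pandas 2.3.3 and matplotlib 3.10.9 did the rest. Fits were tested on simulated data.

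The cell cycle genes and the other lists, including markers of macrophages, T and B lymphocytes, endothelial cells, stromal progenitors, mesothelium, adipocytes, epididymis and male germ cells, were chosen with earlier results of these data known. Values in each library are given for Mki67, Top2a, the 2 genes of each role with the highest mean CPM, and every gene called, and for at most 4 called genes of the other lists per comparison. Further genes are given by counts or ranges, and those named beyond this rule were chosen after their values were seen. Replicate numbers of different groups did not pair the libraries. Gene positions and promoters came from GENCODE and RefSeq on GRCm38.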

Additional observations from a re-analysis of the deposited data

Results flagged for a closer look

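In 48 groups of 4 or 5 libraries, 7 held a highest or lowest deposited log2 value far from the rest (Dixon's test, 95% level). For continuous, normally distributed values chance would give about 2.4. Where all other libraries were at 0, as for Birc5, Sgol2a and Tk1 in controls, any count above 0 is flagged. The number 7 therefore cannot be read as an excess over 2.4. In the WD group, Ccne2 was lowest in replicate 5 at 4.22 (others 5.16 to 5.54), and Pcna was lowest in replicate 2 at 2.88 (others 5.28 to 5.90). In the batch 1 controls, Birc5 was highest in replicate 1 at 3.22 and Sgol2a was highest in replicate 3 at 0.41, with 0 in the others. In the batch 2 controls, Cenpf was highest in replicate 3 at 2.26 (others 0 to 0.58), Tk1 was highest in replicate 4 at 0.55 and Birc5 was highest in replicate 1 at 0.95, with 0 in the others.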

How the results depend on the processing

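Of 734 alternative values of 40 log2 fold changes, 632 kept their direction and their side of the FDR threshold, 66 were no longer called, 26 became called and 10 turned their direction, and the cause was not tested. Within batch 1, Pcna turned to -0.0303 with RLE factors, -0.0241 with library totals, -0.0157 with a CPM floor of 1 in each library and -0.0302 with DESeq2, and ran from -0.29 to 1.89 with a library left out. Ccnd1 within batch 1 ran from -0.058 to 0.60 with a library left out.

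Called cell cycle genes of the 43 within batch 1 numbered 0, 4 by DESeq2, 0 to 3 with a library left out, and 4 without controls 1 and 4, where the shares of all genes called were 0%, 0.955%, 0% to 0.372% and 0.796%. Against batch 2 they numbered 10, 6 with that CPM floor, 16 by DESeq2, and 6 to 10 with a library left out. The shares were 6.40%, 10.4%, 10.4% and 4.55% to 7.86%. That floor drops every gene with a count of 0 in a library compared, so Tk1, Birc5, Cenpe and Cenpf were not tested under it. Against all 9 controls the called genes of the 43 numbered 1, 2 with that floor, 3 by DESeq2, 8 by limma-voom and 0 with batch as a term. They numbered 0 to 5 with a library left out and 9 without batch 1 controls 1 and 4. The shares, in the same order, were 0.530%, 2.19%, 1.78%, 1.76%, 0.00790%, 0.216% to 2.29% and 4.98%. Of the 73 other genes, 0 were called within batch 1, 3 by DESeq2, 1 without controls 1 and 4, and 0 with any one library left out. Against batch 2 they numbered 5, 9 by DESeq2, and 3 to 5 with a library left out. Against all 9 controls they numbered 2, 1 with library totals (0.498% of all genes), 0 with no filter (0.332%), 1 with that floor, 5 by limma-voom, 1 with thinned counts (0.533%), 0 with batch as a term, 0 to 3 with a library left out, and 5 without controls 1 and 4. Of the 11 inhibitors, 0 were called against all 9 controls, 0 to 1 with a library left out, and 1 without controls 1 and 4. The median number of the 43 genes detected in the WD group was 39, and 34 at 10 counts or more.

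The replicate numbers did not pair the libraries, since no correlation of same-numbered libraries' deviations exceeded 0.081. With the replicate number as a block, the calls among the 43 genes were 8 against batch 2 (4.92% of all genes) and 4 against all 9 controls (0.735%), and those among the 73 other genes were 3 and 0. Calls near the threshold, and genes with under 10 counts in a library, are limited by 4 or 5 libraries a group and by counting error.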
